A study of Homo sapiens with 6 samples.

Results

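Feedback inhibitors of MAP kinase signaling were examined in K562 cells, an established human line grown from the blast phase of chronic myeloid leukemia, with and without knockdown of the m6A RNA methyltransferase genes METTL3 and METTL14. The group consisted of 10 genes chosen by name: the dual-specificity phosphatases DUSP1, DUSP2, DUSP4, DUSP5, DUSP6 and DUSP8, the Sprouty genes SPRY2 and SPRY4, and the Sprouty-related genes SPRED1 and SPRED2. All 10 had a row among the 61661 identifiers of the count table, and 7 of them passed the filter on low counts together with 17686 genes in all. DUSP2, DUSP4 and DUSP6 did not pass. RNA-seq was performed on 6 libraries, 2 each of shCTR cells (control virus with an inserted nonsense sequence, genotype WT in the labels), shMETTL3 cells (METTL3 knockdown) and shMETTL14 cells (METTL14 knockdown). Per the study's methods, the METTL3 and control lines were made stable by lentivirus and puromycin selection, with the shRNA under a U6 promoter in a vector that also carries GFP. The sources do not say how the METTL14 line was made, whether any line is 1 clone, or whether the libraries of a group came from separate cultures, so p-values measure the spread between these libraries, which may be technical.

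MAP kinase cascades pass signals from growth factor receptors, and in K562 cells from the BCR-ABL fusion kinase, through RAS and RAF to the kinases MEK and ERK; parallel tiers lead to p38 and JNK. Active ERK switches on the transcription of its own inhibitors. DUSP proteins remove the phosphates from the activation loop of ERK, p38 or JNK, whereas Sprouty and SPRED proteins act further up, between receptor and RAF. The mRNAs of several of these inhibitors are short-lived, and their level is commonly read as a measure of recent pathway activity. METTL3 and METTL14 form the core of the enzyme that methylates adenosine at position N6 in mRNA, mainly within a short consensus of which GGACT, written as DNA, is the most frequent form.

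Library totals ran from 19292574 to 20115304 reads with a median of 19645212 and are the depth behind every value below. Levels are given as CPM, the read count relative to library size after scaling by edgeR's TMM factors. METTL3 fell to 0.549 of its shCTR level in shMETTL3 cells (log2 fold change -0.87, SE 0.0783, adjusted p = 3.44e-07, quasi-likelihood test of edgeR), and METTL14 fell to 0.589 of it in shMETTL14 cells (-0.76, SE 0.0886, adjusted p = 1.4e-05, same test of edgeR). The K562 markers GATA1, TAL1, HBE1 and TFRC had 2414 or more reads in each library, whereas HBG1 and HBG2, whose sequences are nearly identical, had between 10 and 138. Markers of T cells (CD3E), B cells (MS4A1) and monocytes (CD14) had at most 3 reads in any library. Among the remaining markers of other cell types, COL1A1 (fibroblasts) rose in shMETTL3 cells from 59 and 42 to 112 and 110, and EPCAM (epithelium) fell from 1083 and 1042 in controls to 728 and 733 in shMETTL3 and 799 and 822 in shMETTL14 libraries. The summed level of these 5 markers of other cell types was 56.7 to 57.9 CPM in shCTR, 42.3 to 43.0 in shMETTL3 and 44.5 to 45.4 in shMETTL14 libraries, against 1426 to 1614 for the 6 K562 markers named here, of which HBE1, an embryonic globin, rose in both knockdowns. Their part in the results was not tested.

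The promoters of DUSP8 and SPRY4, the members that differed most from control, and of DUSP1, a classical immediate early gene, are shown to place the results next to sequence. RefSeq (GRCh38.p14) held 11 promoter entries for 8 of the 10 members. In the 250 bases before each start, 3 motifs were searched on both strands: the cyclic AMP response element TGACGTCA, the GC box GGGCGG and the ETS core CCGGAA. Capitals mark the matches, no 2 of which overlap. The DUSP8 stretch is chr11:1572272-1572521, the DUSP1 stretch chr5:172771196-172771445 and the SPRY4 stretch chr5:142324248-142324497. Starts here are those of the RefSeq entries. In GENCODE release 29 the DUSP1 stretch adjoins the start of its gene at 172771195. The SPRY4 stretch lies inside its gene, which starts at 142326455 there. The DUSP8 stretch lies before the start of its gene at 1571920 but does not adjoin it. All stretches are on the minus strand and written 5′ to 3′.
DUSP8: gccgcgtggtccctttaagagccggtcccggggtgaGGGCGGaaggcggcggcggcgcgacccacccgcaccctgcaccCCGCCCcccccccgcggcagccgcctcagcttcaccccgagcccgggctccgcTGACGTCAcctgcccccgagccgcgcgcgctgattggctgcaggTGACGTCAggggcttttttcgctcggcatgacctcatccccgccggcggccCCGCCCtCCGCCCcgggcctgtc
DUSP1: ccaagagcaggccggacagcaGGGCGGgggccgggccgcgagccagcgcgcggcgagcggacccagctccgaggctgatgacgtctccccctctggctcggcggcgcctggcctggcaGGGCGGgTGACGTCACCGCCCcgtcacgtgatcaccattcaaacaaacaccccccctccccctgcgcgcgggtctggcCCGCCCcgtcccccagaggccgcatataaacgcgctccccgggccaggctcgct
SPRY4: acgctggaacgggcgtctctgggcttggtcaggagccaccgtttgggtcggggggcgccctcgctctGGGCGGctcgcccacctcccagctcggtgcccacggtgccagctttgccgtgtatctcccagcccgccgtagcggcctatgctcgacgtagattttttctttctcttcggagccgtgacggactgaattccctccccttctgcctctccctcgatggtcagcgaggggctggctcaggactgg

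TGACGTCA occurred 2 times before DUSP8 and 1 time before DUSP1, and in none of the other member entries; 1.65% of all 35116 promoter entries contained it. The GC box was present in 6 of the 11 member entries and in 42.6% of all entries; it occurred 4 times each before DUSP8 and DUSP1, 3 times before DUSP2, 2 times in an entry of SPRY2 and 1 time each before SPRY4 and SPRED1. The ETS core was found in 1 member entry, of SPRY2, and in 14.5% of all. These are matches of letters, with no measurement of factor binding.

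The transcripts were searched in the same way for GGACT, the sense strand only, in the longest coding transcript of each gene in GENCODE release 29. DUSP8 had no match in its 4480 bases. Of the 4930 tested genes whose transcript was at least 4 kb long, 1.22% had none. The other 9 members had between 4 and 11 matches, or 0.643 to 2.96 per kb, against a median of 0.933 per kb over 12512 tested genes. The match nearest to the end of the coding sequence lay 37 bases past it in DUSP1, 450 bases before it in SPRED2 and 1427 bases past it in SPRY4, and is shown with 8 bases on each side for these members, which were called in a comparison below.
DUSP1: tcccattgGGACTccatgctc
SPRED2: ccctacgtGGACTcctcagac
SPRY4: gtgctaaaGGACTcagaaggt

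Methylation was not measured in these libraries, other forms of the consensus were not searched, and a match is not a methylated site.

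The members differed widely in level. Per length, which allows genes to be set side by side, SPRED2 was highest with a mean of 11.6 CPM per kb of exon over the 6 libraries (lowest 10.7, highest 13.2), followed by DUSP1 with 8.14 (6.48 to 10.8). SPRED1, SPRY2 and SPRY4 came next at 3.76, 3.60 and 3.33 CPM per kb, and their ranges overlapped. DUSP8 (1.82) and DUSP5 (1.41) also overlapped each other. The highest DUSP1 library passed the lowest SPRED2 library, but these were libraries of different groups, and within each of the 6 libraries SPRED2 was above DUSP1.

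The 3 remaining phosphatases were close to the limit of detection, which 3 reads set at about 0.15 CPM per library (0.150 to 0.157). DUSP6, the cytoplasmic ERK phosphatase, had 0 and 3 reads in the controls, 3 and 6 in shMETTL3 and 6 and 6 in shMETTL14 libraries. DUSP2, a nuclear phosphatase of blood cells, had 1 read in shCTR replicate 2 and in shMETTL3 replicate 2 and 0 in the other libraries. DUSP4, also nuclear, had 1 read in each shMETTL3 library and in shMETTL14 replicate 2 and 0 elsewhere. A count of 0 allows a level of up to about 0.15 CPM, and this covers counting error only. Without the filter, the smallest unadjusted p of these genes in any comparison was 0.0601, for DUSP6 in shMETTL14 cells (adjusted p = 0.497, edgeR), and no difference was detectable at this depth. Of the exonic bases of DUSP6, 40.5% were shared with an annotated antisense gene that was listed at 0 reads in every library. The strand setting of the counting is not given in the sources used here, and whether the overlap lowered the count of DUSP6 was not tested.

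**Figure D1:**
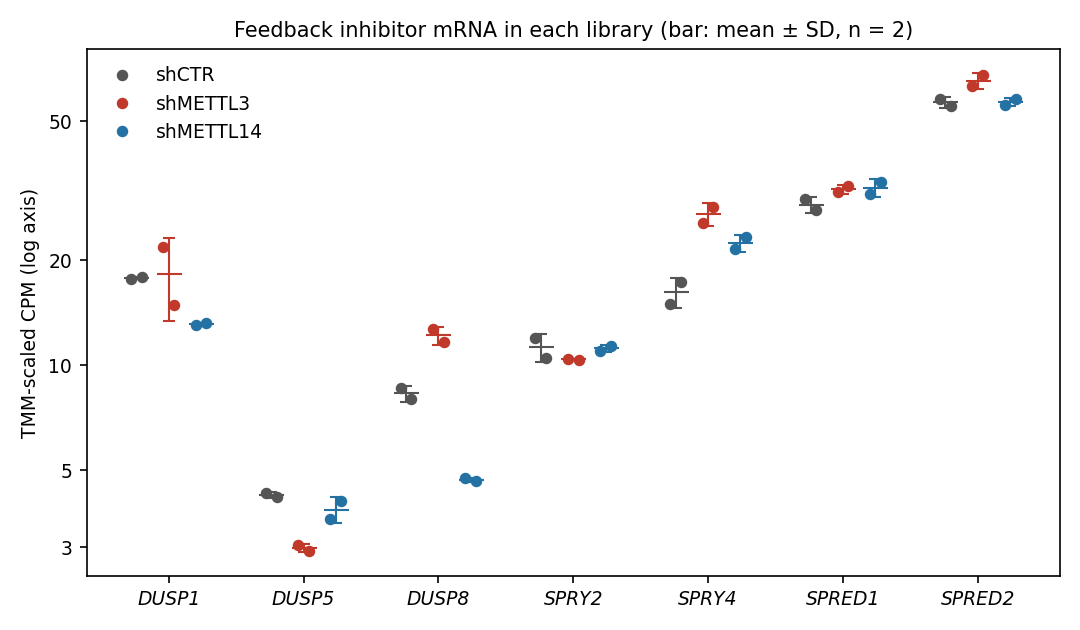
TMM-scaled CPM on a log axis for the 7 tested members in each of the 6 libraries, coloured by group; points are libraries and bars are mean ± SD (n = 2). DUSP8 separates all 3 groups, at 8.30 CPM in shCTR, 12.2 in shMETTL3 and 4.69 in shMETTL14, and SPRY4 lies above control in both knockdowns, while the shMETTL3 libraries of DUSP1 lie apart at 21.8 and 14.9.

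In shMETTL3 cells, 3 of the 7 tested members rose against shCTR (SPRY4, DUSP8 and SPRED2) and none fell at an adjusted p under 0.05 in edgeR; over all tested genes 16.5% were called, 8.73% higher and 7.73% lower. The median log2 fold change of the 7 was 0.15, against 0.003 for all genes tested. In the same test, 4 members had an unadjusted p under 0.05. DESeq2 called 1 member higher, SPRY4, and none lower, and over all genes it tested it called 11.8%. In shMETTL14 cells, SPRY4 rose and DUSP8 fell, 2 of 7, with 6.69% of all genes called (3.43% higher, 3.26% lower), and the median of the members was -0.01. Between the knockdowns, DUSP8 and DUSP1 were higher in the shMETTL3 libraries, with 12.1% of all genes called (6.65% higher, 5.49% lower). With 7 genes, such counts describe the members and are not a test of the group. Both knockdowns were set against the same shCTR libraries. With library size alone as scaling, the share of calls over all genes that were rises went from 53.0% to 71.6% in shMETTL3 and from 51.3% to 62.6% in shMETTL14 cells, and from 54.8% to 65.0% between them, whereas the members called against shCTR were called in the same directions.

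SPRY4 encodes a Sprouty protein that dampens receptor tyrosine kinase signaling to RAS. It had 297 and 332 reads in shCTR, 504 and 572 in shMETTL3 and 422 and 456 in shMETTL14 libraries. All 4 knockdown libraries were above both controls. The level rose from 16.2 ± 1.63 CPM to 27.1 ± 2.01 in shMETTL3 cells (SD, n = 2 each), or 1.67-fold (log2 fold change 0.74, SE 0.103, adjusted p = 6.03e-05 by edgeR). In shMETTL14 cells it rose to 22.4 ± 1.26 CPM (SD, n = 2), or 1.38-fold (0.47, SE 0.105, adjusted p = 0.00936 by edgeR). The lower value in shMETTL14 than in shMETTL3 cells was not called (log2 difference 0.28, SE 0.0995, adjusted p = 0.0793 by edgeR), although the libraries did not overlap. It was called in 3 of 13 alternatives, with the compared groups only (adjusted p = 0.0348) and with shCTR replicate 1 or 2 left out (0.0388 and 0.0372, all by edgeR). The rise in shMETTL3 cells passed under all 13 alternatives, with log2 fold changes of 0.64 to 0.85. The rise in shMETTL14 cells was lost without shCTR replicate 1 (0.37, adjusted p = 0.0791 by edgeR), without shMETTL14 replicate 1 (0.52, 0.0607) and without shMETTL14 replicate 2 (0.41, 0.14). The gene (ENSG00000187678) lies on chromosome 5 from 142310427 to 142326455 (GRCh38, as for all positions), and the antisense gene SPRY4-AS1, which shares none of its exonic bases, had 6 to 18 reads.

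SPRY2, the other Sprouty member (ENSG00000136158, chromosome 13, 80335976 to 80340951), had 201 to 237 reads and the narrowest range of the tested members, the highest CPM being 1.16 times the lowest. Its level was 11.2 ± 1.06 CPM in controls, 10.4 ± 0.0494 with METTL3 knockdown and 11.2 ± 0.270 with METTL14 knockdown (SD, n = 2 each). The log2 fold changes were -0.11 (SE 0.125, adjusted p = 0.586) and -0.01 (SE 0.124, adjusted p = 0.982 by edgeR). Neither passed the test, and neither did so under any of the 13 alternatives.

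SPRED proteins bind neurofibromin, the product of NF1, and bring it to the membrane where it inactivates RAS. SPRED2 (ENSG00000198369, chromosome 2, 65310851 to 65432637) had 1150 and 1058 reads in shCTR, 1240 and 1361 in shMETTL3 and 1098 and 1134 in shMETTL14 libraries. The shMETTL3 libraries were the highest, and those of shMETTL14 overlapped with the controls. SPRED2 rose 1.15-fold, from 56.7 ± 2.07 to 65.5 ± 3.33 CPM (SD, n = 2 each), in shMETTL3 cells (log2 fold change 0.21, SE 0.0697, adjusted p = 0.0482 by edgeR), close to the threshold. The call was lost under 9 of 13 alternatives, among them DESeq2 (adjusted p = 0.15) and each of shCTR replicate 2, both shMETTL3 and both shMETTL14 libraries left out (0.0874 to 0.375). In shMETTL14 cells its level was 56.9 ± 1.39 CPM (SD, n = 2; log2 fold change 0.003, SE 0.0705, adjusted p = 0.99 by edgeR). The log2 difference of 0.20 between the knockdowns (SE 0.0697, adjusted p = 0.0635) was called in 5 of 13 alternatives, among them either shCTR library left out, with adjusted p of 0.0223 to 0.0327 by edgeR.

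SPRED1 (ENSG00000166068, chromosome 15, 38252326 to 38357249) had 591 and 533 reads in shCTR, 615 and 654 in shMETTL3 and 607 and 659 in shMETTL14 libraries. The knockdown libraries were above both controls, by less than the test could call. The log2 fold change was 0.15 (SE 0.0855, adjusted p = 0.265) in shMETTL3 and 0.16 (SE 0.0855, adjusted p = 0.303 by edgeR) in shMETTL14 cells. NF1 itself had log2 fold changes of -0.07 and -0.11 (adjusted p = 0.567 and 0.471 by edgeR).

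**Figure D2:**
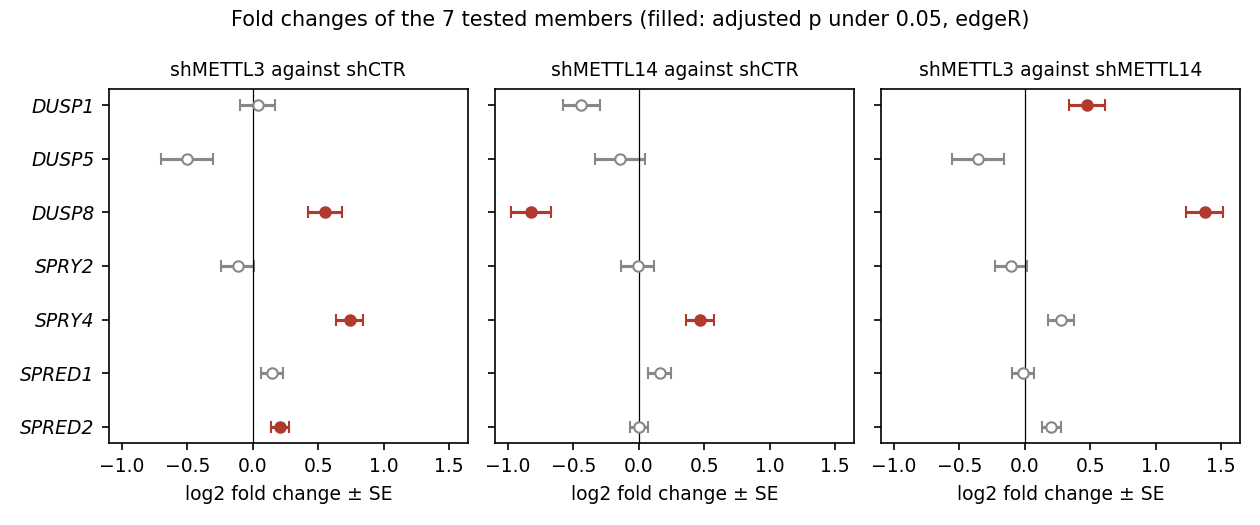
Log2 fold change with its standard error for the 7 tested members in each comparison; filled points have an adjusted p under 0.05 by edgeR. DUSP8 is at 0.55 in shMETTL3 and -0.82 in shMETTL14 cells, and SPRY4 is at 0.74 and 0.47.

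DUSP8 encodes a phosphatase that prefers JNK and p38 over ERK. It had 170 and 153 reads in shCTR, 249 and 234 in shMETTL3 and 93 and 91 in shMETTL14 libraries. The 3 groups did not overlap, with shMETTL3 above and shMETTL14 below control. DUSP8 rose 1.47-fold in shMETTL3 cells, from 8.30 ± 0.432 to 12.2 ± 0.717 CPM (SD, n = 2 each; log2 fold change 0.55, SE 0.132, adjusted p = 0.00724 by edgeR). In shMETTL14 cells it fell to 4.69 ± 0.0644 CPM (SD, n = 2), 0.565 of the control level (-0.82, SE 0.149, adjusted p = 0.00165 by edgeR). The direct difference was 2.59-fold (log2 1.37, SE 0.143, adjusted p = 1.57e-06 by edgeR); by size of log2 difference, it ranked 342 of the 17686 genes. This difference passed under all 14 alternatives.

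The rise of DUSP8 in shMETTL3 cells was not called by DESeq2 (0.55, adjusted p = 0.0659), without shMETTL3 replicate 1 (0.49, adjusted p = 0.0868 by edgeR) or when the dependence on GC content and transcript length was removed within each library (0.36, adjusted p = 0.0645 by edgeR). The DUSP8 transcript has 64.6% GC, more than 95.9% of the tested genes.

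DUSP8 (ENSG00000184545, chromosome 11, 1554044 to 1571920) has 3 pseudogenes on chromosome 10 with a count of their own. Of these, DUSP8P5 (73731824 to 73733638) had 131 and 149 reads in shCTR, 155 and 146 in shMETTL3 and 181 and 123 in shMETTL14 libraries, and the others had at most 6. The groups of DUSP8P5 overlapped, and its log2 fold changes were 0.07 in shMETTL3 and 0.10 in shMETTL14 cells (SE 0.173 each, adjusted p = 0.818 and 0.788 by edgeR). Of its stretches of 50 bases, 2.83% occurred without mismatch in DUSP8 transcripts. Of the stretches of the longest coding DUSP8 transcript, 1.13% occurred in DUSP8P5, and 1.02% and 0.406% in the other copies. Stretches with mismatches were not counted. When the reads of all copies were added to those of DUSP8, an alternative chosen after seeing the data, the sum was still higher in shMETTL3 cells (log2 fold change 0.35, adjusted p = 0.0458) and lower, but not called, in shMETTL14 cells (-0.31, adjusted p = 0.155), and the difference between knockdowns remained past the threshold (0.66, adjusted p = 0.000876, all by edgeR). The treatment of reads that match more than 1 copy is not given in the sources used here. Its effect on the size of the DUSP8 changes was not tested.

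**Figure D3:**
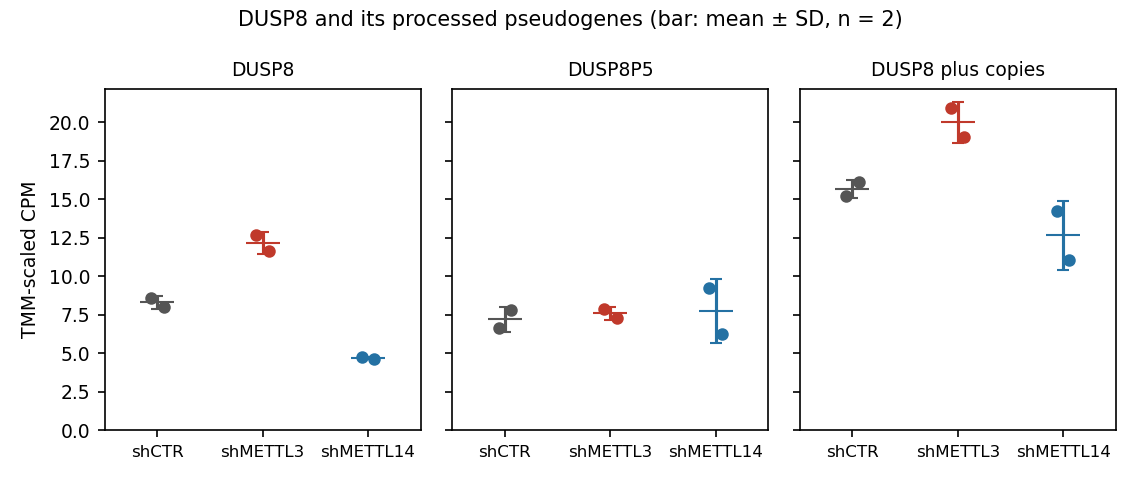
TMM-scaled CPM from 0 for DUSP8, its pseudogene DUSP8P5 and the sum of DUSP8 with all 3 copies; points are libraries and bars are mean ± SD (n = 2). DUSP8 differs between all groups, DUSP8P5 lies between 6.27 and 9.21 CPM with overlapping groups, and the sum keeps the order of DUSP8 with a wider spread in shMETTL14 cells.

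DUSP1 encodes a nuclear phosphatase of p38, JNK and ERK and is induced within minutes of stimulation. The gene (ENSG00000120129) spans 172768090 to 172771195 of chromosome 5. It had 350 and 343 reads in shCTR, 428 and 298 in shMETTL3 and 257 and 259 in shMETTL14 libraries. The shMETTL3 libraries lay on both sides of the controls, so that the log2 fold change of 0.04 in shMETTL3 cells (SE 0.134, adjusted p = 0.88 by edgeR) was -0.26 without replicate 1 and 0.29 without replicate 2, and both shMETTL14 libraries lay below all others. The level was 17.8 ± 0.145 CPM in controls, 18.3 ± 4.90 with METTL3 knockdown and 13.1 ± 0.0935 with METTL14 knockdown (SD, n = 2 each). The lower value in shMETTL14 cells did not pass the test (log2 fold change -0.44, SE 0.139, adjusted p = 0.0647 by edgeR). It passed in 5 of 13 alternatives, among them the replicate block (adjusted p = 0.0362 by edgeR). The others were the compared groups only, removal of the GC and length trend, and either library of shMETTL3, a group outside this comparison, left out. With any 1 library left out, the log2 fold change ran from -0.45 to -0.43. Between the knockdowns, DUSP1 was called 1.39-fold higher in shMETTL3 cells (0.48, SE 0.138, adjusted p = 0.027 by edgeR). That difference was 0.18 without shMETTL3 replicate 1 (adjusted p = 0.542) and 0.73 without shMETTL3 replicate 2, and it was not called with either shMETTL14 library left out (0.181 and 0.151), nor by DESeq2 (0.0943).

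DUSP5, a nuclear phosphatase specific for ERK (ENSG00000138166, chromosome 10, 110497838 to 110511544), had 85 and 80 reads in shCTR, 60 and 59 in shMETTL3 and 71 and 80 in shMETTL14 libraries. The shMETTL3 libraries were the lowest of the 6. The log2 fold change of -0.50 in shMETTL3 cells (SE 0.198, unadjusted p = 0.0205, adjusted p = 0.0928 by edgeR) did not pass the test, nor did it under any of the 13 alternatives. In shMETTL14 cells it was -0.14 (SE 0.192, adjusted p = 0.739 by edgeR).

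Among genes with at least 50 reads in every library, the profile of DUSP8, the member with the largest range of log2 CPM (1.43), was closest to those of LINC00665, PTK7 and NPDC1 (Pearson's r of 0.997, 0.996 and 0.995 over 6 libraries), and 117 of the 12155 genes compared had r above 0.95. For SPRED2, the most abundant member, the closest were ZNF846, BVES and CHRAC1 (0.999, 0.993 and 0.989). The points share libraries and groups, so these values only describe likeness.

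Genes related to the members were described by 7 lists with 71 tested genes. In shMETTL3 cells edgeR called 5 of them higher and 7 lower, 16.9%, a share near the 16.5% over all genes; DESeq2 called 2 and 6. In shMETTL14 cells edgeR called 2 higher and 5 lower, 9.86% against 6.69% over all genes, and DESeq2 called 1 and 3. Between the knockdowns edgeR called 7 higher and 4 lower, 15.5% against 12.1%, and DESeq2 called 3 and 5. The other 4 MAP kinase phosphatases, DUSP7, DUSP9, DUSP10 and DUSP16, were all tested, and neither edgeR nor DESeq2 called any of them in either knockdown or between the knockdowns; at an unadjusted p under 0.05 there was 1, DUSP9 between the knockdowns (log2 difference 0.24, adjusted p = 0.2 by edgeR). Their median log2 fold changes were 0.04 in shMETTL3 and -0.08 in shMETTL14 cells. Of 11 tested atypical dual-specificity phosphatases, DUSP3, which acts on ERK and JNK, rose in both knockdowns (1.18-fold and 1.17-fold, adjusted p = 0.0194 and 0.0427 by edgeR), and DUSP12 differed between the knockdowns, higher in shMETTL3 cells (log2 difference 0.30, adjusted p = 0.0131 by edgeR). DESeq2 called neither.

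Of 11 tested Sprouty relatives and partners, PEBP1, an inhibitor of the ERK cascade, fell in shMETTL3 cells (log2 fold change -0.31, adjusted p = 0.00171) and was also lower there than in shMETTL14 cells (-0.23, adjusted p = 0.0188). CAV1, caveolin-1, a membrane protein that binds Sprouty proteins, fell in shMETTL14 cells from 46 and 67 reads to 23 and 16 (-1.54, adjusted p = 0.00262) and was lower there than in shMETTL3 cells (adjusted p = 0.000135, all by edgeR). SPRY1, SPRY3 and SPRED3 had at most 71 reads per library, and none of them was called in any comparison; at an unadjusted p under 0.05 there was 1, SPRY3 in shMETTL3 cells (adjusted p = 0.142 by edgeR).

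Transcripts that ERK is known to induce went both ways. In each comparison edgeR called 3 of 14 tested, and DESeq2 called 1 higher and 1 lower. Over all genes edgeR called 16.5% in shMETTL3 cells, 6.69% in shMETTL14 cells and 12.1% between the knockdowns. In shMETTL3 cells 2 of 14 tested rose, EPHA2, an ephrin receptor (1.40 on the log2 scale, 14 and 20 to 33 and 59 reads, adjusted p = 0.00797), and CCND1, cyclin D1 (0.45, adjusted p = 0.00163), and 1 fell, MYC (-0.20, adjusted p = 0.027). In shMETTL14 cells ETV1, an ETS factor, rose (0.31, adjusted p = 0.0111), whereas CCND1 (-0.97, adjusted p = 2.74e-06) and FOS (-0.86, adjusted p = 0.0219, all by edgeR) fell. Like DUSP8, CCND1 was highest in shMETTL3 and lowest in shMETTL14 cells, with 52.8 ± 2.70 and 19.8 ± 2.78 CPM against 38.7 ± 2.83 in shCTR (SD, n = 2 each), and differed 2.66-fold between the knockdowns (adjusted p = 5.11e-09 by edgeR). Between the knockdowns, ETV5 was higher (0.26, adjusted p = 0.0495) and ETV1 lower (-0.44, adjusted p = 0.000298, both by edgeR) in shMETTL3 cells.

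The cascade that the inhibitors restrain was represented by its kinases and adaptors. Of the 16 genes of the RAS, RAF, MEK and ERK core, the scaffold KSR1 rose (log2 fold change 0.21, adjusted p = 0.0216) and the RAS exchange factor SOS1 (-0.25, 0.0196) and the adaptor GAB2 (-0.19, 0.0385) fell in shMETTL3 cells. None was called in shMETTL14 cells by edgeR or DESeq2, and 1 had an unadjusted p under 0.05 in edgeR. Between the knockdowns, KSR1 was higher (0.23, adjusted p = 0.0124) in shMETTL3 cells by edgeR. Of 9 tested p38 and JNK tier genes, the p38 kinase MAPK13 rose in shMETTL3 cells (0.56, adjusted p = 0.0255), the p38 kinase MAPK11 fell in shMETTL14 cells (-0.33, adjusted p = 0.0218), and MAPK13 (0.55, 0.0372) and the JNK kinase MAPK9 (0.22, 0.0494, all by edgeR) were higher in shMETTL3 than in shMETTL14 libraries. DESeq2 called none of these p38 and JNK genes.

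Of 6 factors that act on AU-rich mRNAs, a class to which several feedback inhibitors belong, 3 fell in shMETTL3 cells: the decay factors ZFP36L2 (-0.31, adjusted p = 0.00291) and ZFP36L1 (-0.24, adjusted p = 0.0219) and the binding protein HNRNPD (-0.18, adjusted p = 0.0256). ZFP36L1 also fell in shMETTL14 cells (-0.30, adjusted p = 0.0135), and ZFP36L2 differed between the knockdowns, lower in shMETTL3 cells (-0.25, adjusted p = 0.0149, all by edgeR). DESeq2 called 2 of the 6 lower in shMETTL3 cells and none higher. The median of these 6 genes in shMETTL3 cells was -0.14, against 0.003 for all genes tested, of which edgeR called 7.73% lower. Whether these factors bear on the levels of the members was not tested.

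**Figure D4:**
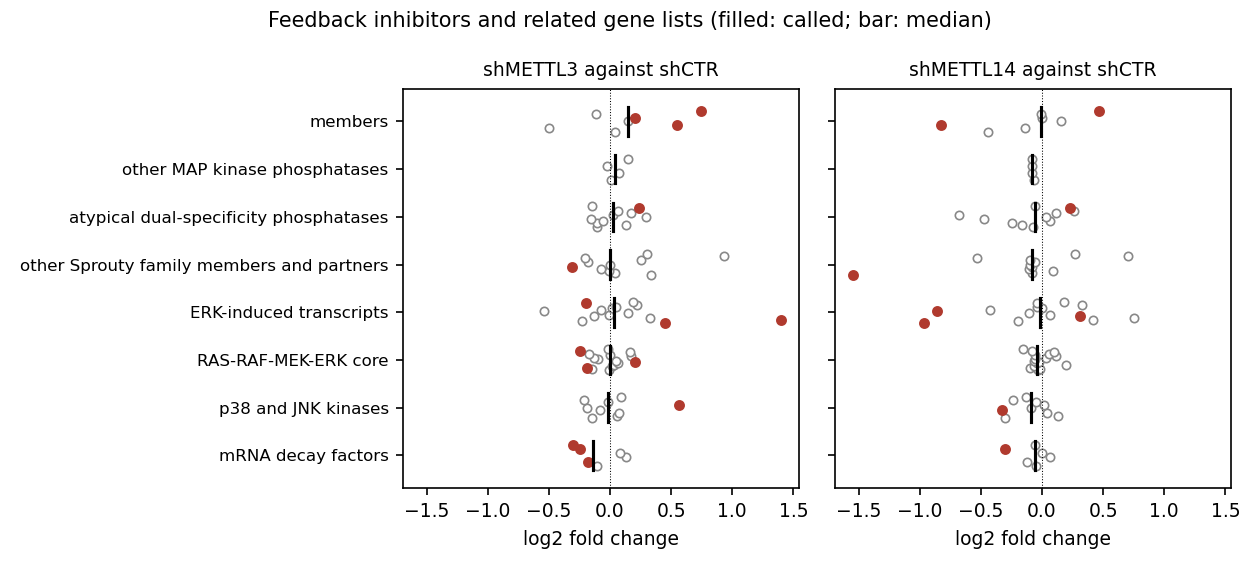
Log2 fold change of every tested gene of the members and 7 related lists in each knockdown; filled points have an adjusted p under 0.05 by edgeR and black bars are list medians. The medians of the members are 0.15 and -0.01, those of the related lists lie between -0.14 and 0.04, and called genes lie on both sides of 0.

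All levels are relative to the other mRNAs of a library, so fewer transcripts per cell and fewer cells that carry a transcript cannot be told apart, and mRNA does not show the amount or activity of the phosphatases.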

How the data were processed

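RNA-seq counts of 6 K562 libraries were analysed, grouped by the submitters' titles. The authors deposited raw counts per gene, whole numbers without normalization; the submitters' processing notes name HTSeq 0.6.1 and hg38, while aligner, annotation and strand setting are not given in the sources used here. No molecular identifiers are named, so errors include no correction for PCR copies. Members and lists were chosen with earlier results of these data known. Symbols came from a gene name table (56558 identifiers) and GENCODE release 29 (497 more); coordinates and exonic lengths are those of GENCODE 29 (GRCh38). The 986 identifiers without an Ensembl name stayed in the library totals.

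In R 4.3.3, edgeR 4.0.16 was run with filterByExpr (minimum count 10), TMM and quasi-likelihood tests fitted once to all libraries. P-values were adjusted over 17686 genes by Benjamini-Hochberg, with a threshold of 0.05. Standard errors were taken from the fold change and its F statistic. Replicates differed by more than sampling noise (mean chi-square per gene 2.55 to 5.30, where 1 is noise alone). Named from related lists were called genes, at most 4 of the largest per list and comparison; the markers and the closest profiles were also set by rule, and SPRY1, SPRY3, SPRED3, NF1 and the uncalled phosphatases were named after their values were seen. Alternatives were DESeq2 1.42.0, its size factors, library size alone, no filter, the compared groups only, a replicate block, removal of a GC and length trend (mgcv 1.9.3) and each library left out. The steps were tested on simulated data. Some genes of the lists are not reported here.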

Additional observations from a re-analysis of the deposited data

Results flagged for a closer look

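DUSP8 and DUSP1 stood out because their fold changes against the shared shCTR libraries had opposite signs in the knockdowns and the direct difference between shMETTL3 and shMETTL14 cells passed the test. For DUSP8 this difference was 1.37 on the log2 scale (adjusted p = 1.57e-06 by edgeR), with called changes of 0.55 and -0.82 and 2 of 2 libraries on each side of both controls. For DUSP1 it was 0.48 (adjusted p = 0.027 by edgeR), and neither of its own changes, 0.04 and -0.44, was called. The sign of the first was set by 1 library: it was -0.26 without shMETTL3 replicate 1, the same sign as in shMETTL14 cells, and 0.29 without replicate 2.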

How the results depend on the processing

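Over 13 alternatives for each tested member, and for DUSP8 also the sum with its copies, no called log2 fold change reversed. Of 92 values in shMETTL3, 92 in shMETTL14 and 92 between the knockdowns, 80, 83 and 79 kept their direction or stayed uncalled, on the same side of the threshold; 12, 4 and 5 lost the call, and 0, 5 and 8 gained one. Where the cause of a lost or gained call is not fixed by fewer libraries or genes, the cause was not tested.

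The number of members called in shMETTL3 cells was 3, beside 16.5% of all genes, and 1 with DESeq2, beside 11.8%. In shMETTL14 cells it was 2 with edgeR, beside 6.69%, and 2 with DESeq2, beside 5.28%. Between the knockdowns it was 2, beside 12.1% of all genes. It was 1 there with DESeq2 (7.98%), 1 without the filter (4.4%) and 4 with the compared groups only (16.7%). Each of these moved the same way as the share over all genes. The members called also changed with libraries left out. A library left out leaves a group of 1, whose spread is assumed to be that of the other groups. With the replicate block the counts were 3, 3 and 2, beside 18.5%, 8.25% and 14% of all genes. The call gained was DUSP1 in shMETTL14 cells. The replicate numbers did not pair the libraries (correlations of deviations 0.06, 0.005 and -0.02).

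Over all genes, DESeq2 called 1757, 712 and 1242 against 2912, 1184 and 2148 by edgeR, and 766 were called without the filter in shMETTL14 cells. With libraries left out, calls ranged from 1102 to 3569 in shMETTL3, 341 to 1913 in shMETTL14 and 942 to 2953 between the knockdowns. Depth limits DUSP2, DUSP4 and DUSP6 most.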
